A study of Mus musculus with 5 samples.

Results

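The cells described here are cycling tumor cells of MMTV-PyMT organoids, chosen as wells in which transcripts of 6 mitotic genes (Mki67, Top2a, Cdk1, Ccnb1, Birc5 and Ube2c) together made up at least 6 of every 10000 counts. A well entered the choice when it held over 2000 counts and under 8000 genes, with the spike-in rows removed. By this rule 463 of 1255 kept wells were cycling, out of 1920 wells on 5 plates. In MMTV-PyMT mice the promoter of mouse mammary tumor virus drives polyoma middle T, a viral oncogene, in the mammary epithelium, and organoids were cultured from the tumors that arise there. All groups carried this transgene, were grown in BME (a basement membrane extract) in serum-free medium with B27, N-acetylcysteine and FGF2, and were then released and embedded again for 5 days, either in BME, labelled as not invading, or in Collagen I from rat tail, labelled as invading. The BME group had 3 plates (replicates 1, 2 and 3) and the Collagen I group had 2 (replicates 1 and 3), while Collagen I replicate 2 was not analysed here. No source used here says whether the plates of a group came from separate cultures, so p-values measure only the spread between these plates, which may be technical. The comparison asks how the transcripts of cycling cells differ between the invasive and the non-invasive matrix.

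A dividing cell copies its DNA in S phase with the MCM helicase, PCNA and the polymerases, and separates it in mitosis with cyclin B and CDK1, the Aurora kinases, condensins and the kinetochore, after which the ubiquitin ligase APC/C, working with CDC20 and UBE2C, marks cyclins and securin for destruction. Transcripts of the mitotic set accumulate in G2 and M, in part through the CHR element to which the DREAM complex and B-MYB with FOXM1 bind, whereas replication transcripts rise earlier under E2F. CDK inhibitors of the INK4 and CIP/KIP families restrain entry into S phase, and growth factor receptors signalling through ERK, together with Myc, promote it.

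The wells were read by SORT-seq, a plate method in which each well of a 384-well plate receives 1 sorted cell and each transcript a unique molecular identifier (UMI). Total counts were 9077590 to 10911740 per BME plate and 1091410 and 1631981 per Collagen I plate, so that the Collagen I values carry the larger counting error. File names give 1 flow cell for all 3 BME plates and a separate one for each Collagen I plate, so matrix and sequencing run cannot be told apart. The same 384 well names recur on every plate because barcodes are reused. Spike-in transcripts took 2.31% to 2.68% of counts on BME plates and 8.07% to 8.18% on Collagen I plates, and in the cycling wells ribosomal Rn45s took 1.67% to 2.49% against 7.17% and 7.94%. Summed over each plate, the wells held epithelial transcripts. Krt8 was at 362, 311 and 304 CPM in the BME plates and 768 and 815 CPM in the Collagen I plates. The luminal list summed to 2535 to 3165 CPM on BME plates and to 3211 and 3043 CPM on Collagen I plates. Of the immune list (6 genes in the files) and the endothelial list (5 genes) only Cd3d and Pecam1 passed the filter on low counts, and the summed levels were 3.56 to 5.10 against 0 and 8.15 CPM and 2.09 to 3.35 against 8.15 and 8.20 CPM. CPM are counts per 1000000 counts of the summed cycling wells of a plate, scaled by TMM factors. Of the 10 fibroblast markers 3 were tested, and the list summed to 17.6 to 32.5 CPM on BME plates but to 118 and 358 CPM on Collagen I plates. Wells in which fibroblast markers other than Pdgfra, which BME wells also held, reached 10 per 10000 counts numbered 0 in each BME plate and 1 and 4 among the cycling wells of Collagen I replicates 1 and 3. Among the other kept wells of Collagen I replicates 1 and 3 they numbered 3 and 16.

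Cycling wells were a smaller share of the kept wells in Collagen I. The rule kept 141 of 286, 113 of 259 and 121 of 265 wells in BME replicates 1 to 3, which is 49.3%, 43.6% and 45.7%, against 43 of 232 (18.5%) and 45 of 213 (21.1%) in Collagen I replicates 1 and 3. The exact binomial 95% intervals (Clopper-Pearson, counting error only) ran from 37.5% to 55.3% over the BME plates and from 13.8% to 27.2% over the Collagen I plates and did not overlap between the matrices. This share is a description without a test, because the same values chose the wells. The wells differed in depth, with a median of 32983 to 40548 counts per cycling well in BME and 7003 and 4497 in Collagen I. After every kept well had been thinned to 2000 counts, with no well lost, the shares were 42.3%, 40.5% and 40.8% in BME and 16.4% and 17.4% in Collagen I. Among wells with over 5000 counts they were 49.4%, 45.1% and 45.3% against 23.4% and 29.0%, and the order of the matrices was the same with a cut of 3 or of 12 per 10000. The gene limit removed 8, 11 and 18 BME wells, of which 7, 10 and 14 reached the marker cut, and no Collagen I well. Doublets were not called.

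**Figure D1:**
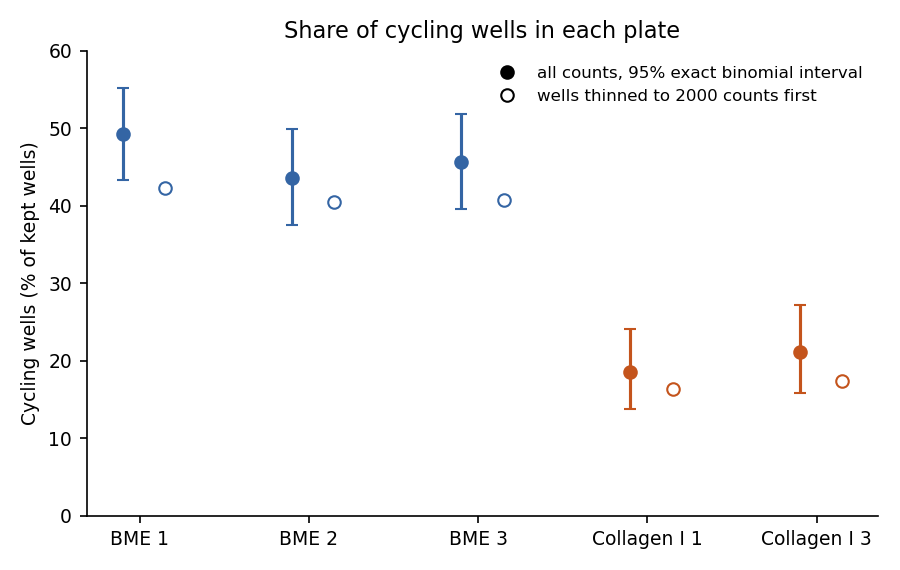
Share of kept wells that were cycling, in percent of kept wells, per plate, with 95% binomial intervals for the unthinned value, and again after thinning each well to 2000 counts. The 3 BME plates sit between 40.5% and 49.3% and the 2 Collagen I plates between 16.4% and 21.1%.

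Wells with Krt5 and Krt14, the keratin pair of the basal epithelial layer, at 6 or more per 10000 counts made up 17.0%, 16.8% and 28.9% of the cycling wells in BME and 18.6% and 17.8% in Collagen I, so the groups overlapped. They were 33.8%, 41.1% and 24.3% of the other kept wells in BME and 27.5% and 39.3% in Collagen I. Read the other way, 24 of 73, 19 of 79 and 35 of 70 keratin-positive wells were cycling on the BME plates and 8 of 60 and 8 of 74 on the Collagen I plates (13.3% and 10.8%). Wells below the keratin cut were cycling in 44.1% to 54.9% of cases in BME and in 20.3% and 26.6% in Collagen I. The smaller share of cycling wells in Collagen I was thus present on both sides of the keratin cut. Krt14 itself was lower in the cycling wells of Collagen I (log2 fold change −1.46), while Krt5 was not called (−0.01). The cut may therefore sort wells differently in the 2 matrices, which was not tested.

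Within the wells chosen, the 6 markers stood at similar levels in the 2 matrices, which the rule partly fixed. The median marker sum per cycling well was 16.5, 14.6 and 14.5 per 10000 counts in BME and 18.6 and 17.9 in Collagen I, and a median well held 6 of the 6 markers in each BME plate and 5 and 4 in the Collagen I plates. Just inside the threshold lay wells at 6.36, 6.01 and 6.13 in BME and 6.02 and 6.30 in Collagen I, and just outside it wells at 5.94, 5.87, 5.95, 5.47 and 5.77. Mki67, a proliferation antigen of the chromosome periphery, was at 449, 322 and 383 CPM in the BME plates and 328 and 334 CPM in the Collagen I plates. Top2a, the topoisomerase that disentangles sister chromatids, was at 462, 322 and 392 CPM in the BME plates and 369 and 428 CPM in the Collagen I plates. Both ranges overlapped between the matrices. Cdk1, the mitotic kinase, was at 381, 272 and 292 CPM in the BME plates and 328 and 277 CPM in the Collagen I plates. Its cyclin Ccnb1 was at 253, 211 and 217 CPM in the BME plates and 249 and 240.3 CPM in the Collagen I plates, again with overlap. Birc5, the survivin subunit of the chromosomal passenger complex, was at 390.1, 376 and 404 CPM in the BME plates and 319.8 and 375 CPM in the Collagen I plates, with the lowest BME plate and the highest Collagen I plate closer than the BME plates were to each other. Ube2c, the ubiquitin-conjugating enzyme of APC/C, was at 404, 332 and 351 CPM in the BME plates and 558 and 493 CPM in the Collagen I plates, the marker with the widest gap between the matrices. No test is attached to these values.

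The mitotic genes share a short promoter element, the CHR, whose letters are TTTGAA, and the promoters of 4 of the 6 markers hold them on one strand or the other (TTCAAA is the same element read from the opposite strand). They are shown because this element marks the gene set by which the wells were chosen. The sequences are RefSeq promoters on GRCm38.p6, printed 5′ to 3′ along the gene and ending no later than the base before the annotated start, with the matches in capitals. The windows are Mki67 at chr7:135716442-135716525, minus strand with matches 116 and 98 bases before the start, Top2a at chr11:99024190-99024242, minus strand with the nearer of its matches, Cdk1 at chr10:69352913-69353013, minus strand, Ube2c at chr2:164769870-164769928, plus strand, and, from the mitotic lists below, Cdc20 at chr4:118437344-118437391, minus strand and Kif2c at chr4:117178840-117178905, minus strand.
Mki67: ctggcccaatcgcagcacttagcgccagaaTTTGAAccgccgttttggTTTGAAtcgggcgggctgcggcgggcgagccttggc
Top2a: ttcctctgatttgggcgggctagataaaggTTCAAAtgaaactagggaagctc
Cdk1: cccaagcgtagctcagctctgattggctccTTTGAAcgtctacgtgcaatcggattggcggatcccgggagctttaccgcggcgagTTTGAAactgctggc
Ube2c: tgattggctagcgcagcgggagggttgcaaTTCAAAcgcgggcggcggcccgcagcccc
Cdc20: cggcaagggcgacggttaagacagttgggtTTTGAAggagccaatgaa
Kif2c: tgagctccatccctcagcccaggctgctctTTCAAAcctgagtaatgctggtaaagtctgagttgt
The promoters of Ccnb1 and Birc5 held no match in the 300 bases searched. The letters occurred in the promoters of 13 of 22 mitotic kinase and cyclin genes and 25 of 30 spindle and kinetochore genes with a promoter in the table, in 4 of 30 replication genes, and in 20.2% of all 27025 genes of the table (17.9% of its 32851 promoters). A match is a description of the letters, not of binding.

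Over all genes, 10922 were tested in the summed cycling wells with edgeR's quasi-likelihood test, and 480 (4.39%) rose and 325 (2.98%) fell in Collagen I at an adjusted p under 0.05. Here and below, rose and fell refer to Collagen I against BME, and values with ± are log2 fold changes with their standard error. DESeq2 called 549 higher and 246 lower, and edgeR without the filter on low counts 581 and 580, so the share of higher calls moved with the method. The median log2 fold change over all genes tested was −0.07. Counts of calls in the gene lists below are read against the shares of all genes, 4.39% higher and 2.98% lower. Plates of the 2 groups did not overlap, with both Collagen I plates higher, for 2335 genes (21.4%), and with both lower for 2906 genes (26.6%), and counts of such genes below are read against these shares. Each call rests on 2 Collagen I plates. Without Collagen I replicate 1, 125 of the 480 and 24 of the 325 calls were kept, without Collagen I replicate 3, 141 and 29, and without BME replicate 3, 323 and 132, while 80 higher and 12 lower calls were kept whichever plate was left out. Below, a gene is called stable when its call was kept in all 5 of these fits. In sums over wells, fewer wells expressing a gene and less of its RNA per well cannot be told apart.

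Replication transcripts were lower in Collagen I cycling wells. Of 38 replication genes 5 fell and 0 rose, the list's median was −0.59, and 23 of the 38 were lower in both Collagen I plates than in any BME plate. Pcna, the sliding clamp of the polymerases, was at 694, 594 and 603 CPM in the BME plates and 309 and 363 CPM in the Collagen I plates, which is -0.92 ± 0.17 (adjusted p = 0.00439). Mcm4, a subunit of the replicative helicase, was at 106, 146 and 114 CPM in the BME plates and 49.2 and 36.7 CPM in the Collagen I plates (-1.47 ± 0.28, adjusted p = 0.00439). In both genes the highest Collagen I plate lay well under the lowest BME plate. Prim1, the primase subunit that starts each new strand, was at 109, 119 and 129 CPM in the BME plates and 38.3 and 57.03 CPM in the Collagen I plates (-1.37 ± 0.26). Dtl, which directs a ubiquitin ligase to proteins on the PCNA clamp, fell by 1.43 on the log2 scale. Mcm6, named after its values were seen, completed the 5 at -0.83 ± 0.20. None of the 5 calls was kept without Collagen I replicate 1 and 1 was kept without replicate 3, so this count depends on having both plates.

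Nucleotide synthesis moved in the same direction. Of 18 genes 7 fell and 0 rose, with a median of −0.68. Rrm2, the ribonucleotide reductase subunit that limits deoxynucleotide supply in S phase, was at 344, 384 and 356 CPM in the BME plates and 219 and 143 CPM in the Collagen I plates (-0.97 ± 0.20, adjusted p = 0.00654). Paics, of purine synthesis, was at 702, 505 and 551 CPM in the BME plates and 282 and 281 CPM in the Collagen I plates (-1.06 ± 0.19, adjusted p = 0.00328). Mthfd2, the mitochondrial folate enzyme, fell by 1.06 and Dut, which removes dUTP, by 0.70 on the log2 scale. Of the 7, 1 was called without Collagen I replicate 1 and 0 without replicate 3. Chek1, the checkpoint kinase of stalled forks, was at 30.2, 30.4 and 35.6 CPM in the BME plates and 5.47 and 4.07 CPM in the Collagen I plates (-2.70 ± 0.54, adjusted p = 0.00654) and was the only 1 of 19 genes of S phase DNA repair called, with reads in 3 of 88 Collagen I wells and 197 of 375 BME wells. That call was lost without either Collagen I plate. Both Collagen I levels of Chek1 were near the detection limit. Here and below, wells with a transcript were counted without thinning. The median cycling well held 32983 to 40548 counts in BME and 7003 and 4497 in Collagen I. The part of depth in such well numbers was not tested.

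Mitotic transcripts did not show this fall, but the wells were chosen on mitotic genes, so these lists were not free to fall. Their counts and the values of their members are a description. Of 28 mitotic kinase and cyclin genes 1 rose and 0 fell (median 0.03), and of 37 spindle, kinetochore and cytokinesis genes 1 rose and 0 fell (median 0.23), against a background of 4.39% and 2.98%. Cdc20, the activator of APC/C at anaphase, was at 105, 135 and 124 CPM in the BME plates and 219 and 261 CPM in the Collagen I plates (0.97 ± 0.19), and Kif2c, a kinesin that takes microtubules apart at kinetochores, at 47.6, 46.2 and 46.4 CPM in the BME plates and 73.8 and 97.8 CPM in the Collagen I plates (0.85 ± 0.23). Both were higher in each Collagen I plate than in any BME plate, and both calls were lost without either Collagen I plate. Aurka, the kinase of centrosomes and spindle poles, was at 72.5, 55.3 and 80.3 CPM in the BME plates and 101 and 151 CPM in the Collagen I plates and was not called. Of 27 chromosome structure genes Asf1b, a chaperone that hands histones to new DNA, was the 1 called, at 110.02, 84.3 and 96.4 CPM in the BME plates and 32.8 and 44.8 CPM in the Collagen I plates (-1.36 ± 0.28).

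Summed over the lists, the 38 replication genes came to 3230, 3560 and 3392 CPM in BME and 2441 and 1968 CPM in Collagen I. The 65 mitotic genes, without the 6 markers, came to 6892, 5724 and 6161 CPM in BME and to 6767 and 7646 CPM in Collagen I. Mitotic sums were therefore 2.13, 1.61 and 1.82 times the replication sums in BME and 2.77 and 3.89 times in Collagen I. Because wells were chosen on mitotic transcripts, the rule helps to set these ratios and the per-well comparison below. Both are a description. Well by well, the median replication sum was 25.7, 31.2 and 30.7 per 10000 counts in BME and 16.1 and 13.9 in Collagen I. The mitotic sum exceeded the replication sum in 75.2%, 66.4% and 70.2% of BME wells and in 76.7% and 93.3% of Collagen I wells, so the second Collagen I plate, not the first, stood well above the BME range. In the shallower Collagen I wells each gene is seen less often, and the part of depth in these per-well shares was not tested.

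**Figure D2:**
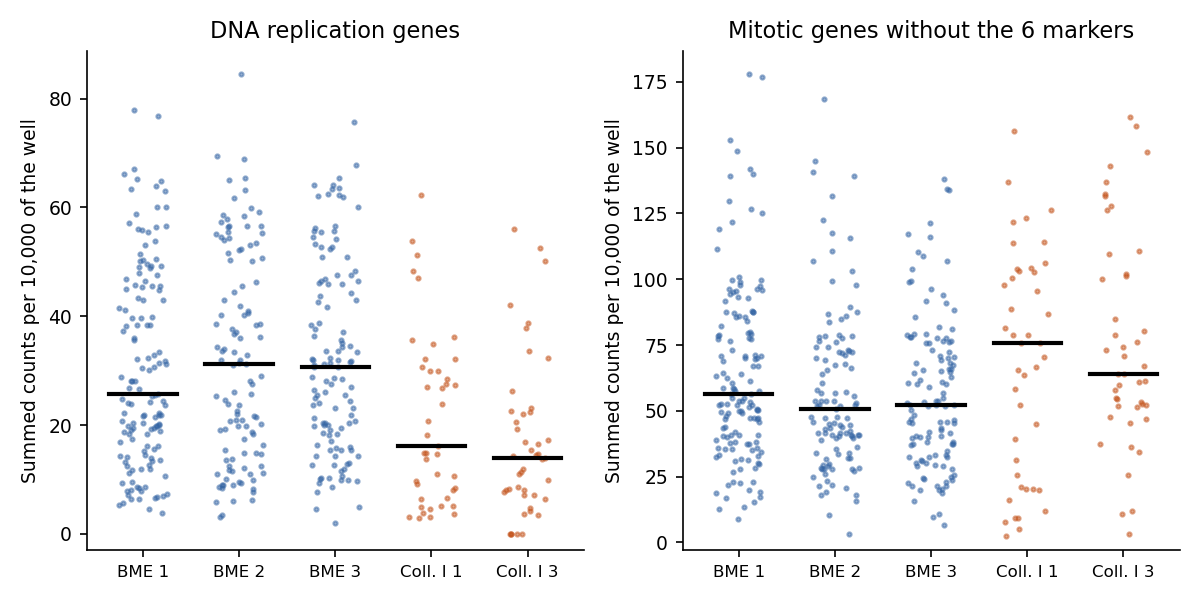
Replication sum (left) and mitotic sum without the 6 markers (right) of each cycling well, in counts per 10000 counts of the well, by plate, with 1 point per well and a bar at the median. The median replication sum lies between 25.7 and 31.2 in the BME plates and at 16.1 and 13.9 in the Collagen I plates.

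Of 29 genes of G1 cyclins, CDK inhibitors, Rb and E2F, 4 rose and 0 fell in the same cycling wells, the list's median was 0.33, and none of the 4 calls was stable. Cdkn2a, the locus of p16INK4a and p19ARF, was at 15.3, 19.2 and 15.9 CPM in the BME plates and 90.2 and 65.2 CPM in the Collagen I plates (2.24 ± 0.29, adjusted p = 1.76e-04). Its neighbour Cdkn2b, which encodes p15INK4b, was at 17.6, 13.4 and 9.62 CPM in the BME plates and 51.9 and 73.3 CPM in the Collagen I plates (2.17 ± 0.37, adjusted p = 0.00184). Cdkn1a, encoding p21, was at 139.8, 62.3 and 86.4 CPM in the BME plates and 183 and 219.98 CPM in the Collagen I plates (1.05 ± 0.30, adjusted p = 0.044), with 1 BME plate close to the lower Collagen I plate. Btg2, an antiproliferative p53 target, was at 10.00, 9.82 and 10.9 CPM in the BME plates and 21.9 and 69.3 CPM in the Collagen I plates, and most of its difference came from Collagen I replicate 3. Cdkn2a and Cdkn2b transcripts were found in 148 and 94 of 375 BME cycling wells and in 29 and 22 of 88 Collagen I wells, although the Collagen I wells were several times shallower. Of the 4 calls 1 was kept without Collagen I replicate 1 and 1 without replicate 3.

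The wider p53 list moved in both directions, with 2 of 17 genes higher and 2 lower, against a background of 4.39% and 2.98%. Gadd45a, a stress gene that binds PCNA and Cdk1, was at 51.6, 49.6 and 40.8 CPM in the BME plates and 145 and 171 CPM in the Collagen I plates (1.72 ± 0.21, adjusted p = 1.13e-04) and was stable. Cdkn1a was the other gene that rose. Ccng1, an atypical cyclin induced by p53, was at 181, 129 and 149 CPM in the BME plates and 76.5 and 89.6 CPM in the Collagen I plates (-0.90 ± 0.24). Eda2r, a receptor induced by p53, was at 10.2, 8.86 and 10.7 CPM in the BME plates with 0 counts in both Collagen I plates, which is at least 1.98-fold lower when set against a floor of 3 counts over the group. Neither fall was kept without BME replicate 3 or without either Collagen I plate.

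Several growth factor receptors and ligands were higher. Of 12 genes tested 4 rose and 1 fell. Fgfr1, a receptor for the FGF2 in the medium, was at 379, 313 and 308 CPM in the BME plates and 607 and 636 CPM in the Collagen I plates (0.90 ± 0.16, adjusted p = 0.003). Igf1r, the receptor of insulin-like growth factors, was at 122, 88.6 and 94.98 CPM in the BME plates and 167 and 261 CPM in the Collagen I plates (1.04 ± 0.22). Tgfa, a ligand of the EGF receptor, was at 27.8, 17.97 and 14.6 CPM in the BME plates and 57.4 and 65.2 CPM in the Collagen I plates (1.59 ± 0.36). Erbb2, the ligandless receptor of that family, was at 13.9, 17.01 and 11.9 CPM in the BME plates and 54.7 and 24.4 CPM in the Collagen I plates. In these 4 genes both Collagen I plates exceeded every BME plate. Met, the hepatocyte growth factor receptor, named after its values were seen, was the gene that fell (207, 187 and 151 CPM in the BME plates and 107 and 106 CPM in the Collagen I plates). Of the 4 higher calls 1 was kept without Collagen I replicate 1 and 0 without replicate 3.

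Of 15 feedback targets of ERK 5 rose and 1 fell, against a background of 4.39% and 2.98%, and the median was 0.75. Ier3, an early response gene induced by ERK and NF-kB, was at 143, 149.5 and 166 CPM in the BME plates and 585 and 754 CPM in the Collagen I plates (2.12 ± 0.16, adjusted p = 1.86e-06) and was stable. Egr1, a transcription factor of the early response, was at 64.5, 92.00 and 106 CPM in the BME plates and 148 and 228 CPM in the Collagen I plates (1.07 ± 0.25). Etv5, an ETS factor induced by FGF signalling, was at 177, 208 and 201 CPM in the BME plates and 333 and 322 CPM in the Collagen I plates (0.75 ± 0.16). Spry2 and Spry4, inhibitors of receptor signalling named after their values were seen, rose by 1.01 ± 0.28 and 1.79 ± 0.50. After the same wells were thinned, Spry2 was at −0.0739 on the log2 scale and was not called, and neither gene was stable. Phlda1, an inducible pleckstrin-homology protein, went the other way, at 601, 616 and 527 CPM in the BME plates and 292 and 273 CPM in the Collagen I plates (-1.04 ± 0.17, adjusted p = 0.00162). Of the 6 calls only that of Ier3 was kept without Collagen I replicate 1, and the same held without replicate 3.

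Immediate early genes, which also respond to tissue dissociation, rose strongly in 1 Collagen I plate. Of 20 genes 10 rose and 1 fell. Fos was at 36.3, 39.1 and 82.9 CPM in the BME plates and 148 and 371 CPM in the Collagen I plates, Jun at 53.3, 41.9 and 89.1 CPM in the BME plates and 175 and 395 CPM in the Collagen I plates and Fosb at 7.76, 6.71 and 21.3 CPM in the BME plates and 30.1 and 248 CPM in the Collagen I plates, all subunits of AP-1. For each of them Collagen I replicate 3 was more than 2 times Collagen I replicate 1, and BME replicate 3 was the highest BME plate. Without Collagen I replicate 3, 1 of the 10 calls was kept, and Fosb went from 3.40 to 1.31. Zfp36, which destabilises mRNAs with AU-rich elements, was the stable one, at 23.9, 19.2 and 19.5 CPM in the BME plates and 112 and 163 CPM in the Collagen I plates (2.69 ± 0.25, adjusted p = 9.52e-06). Hspa8, the constitutive heat shock cognate, named after its values were seen, fell from 1857, 2519 and 2653 to 1372 and 1291 CPM.

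Of 32 genes of hypoxia and glycolysis 17 rose and 0 fell, against a background of 4.39% and 2.98%, the median was 0.81, and 25 of 32 were higher in both Collagen I plates than in any BME plate. Vegfa, the angiogenic factor induced by HIF, was at 111, 112 and 95.4 CPM in the BME plates and 563 and 721 CPM in the Collagen I plates (2.59 ± 0.16, adjusted p = 2.62e-07). Egln3, a prolyl hydroxylase that marks HIF for destruction and is itself a HIF target, was at 211, 178 and 155 CPM in the BME plates and 888 and 888 CPM in the Collagen I plates (2.29 ± 0.17, adjusted p = 9.44e-07). Ddit4, an inhibitor of mTORC1, was at 120.4, 118 and 98.1 CPM in the BME plates and 522 and 538 CPM in the Collagen I plates (2.24 ± 0.16, adjusted p = 9.25e-07). Each of the 3 had its lower Collagen I plate more than 4 times above its highest BME plate. Ndrg1 was at 53.3, 96.6 and 89.8 CPM in the BME plates and 349.8 and 387 CPM in the Collagen I plates (2.20 ± 0.23), Bnip3, a mitophagy receptor, at 127, 93.7 and 104 CPM in the BME plates and 317 and 297 CPM in the Collagen I plates and Car9, the carbonic anhydrase used as a hypoxia marker, at 175, 112 and 130.3 CPM in the BME plates and 424 and 419.6 CPM in the Collagen I plates (the latter pair named after their values were seen). Glycolytic enzymes were found on both sides of the threshold. Gpi1 and Aldoc rose by 1.17 ± 0.16 and 1.45 ± 0.17 and were stable, whereas Pgk1, at 1338, 1163 and 1321 CPM in the BME plates and 1757 and 1715 CPM in the Collagen I plates (adjusted p = 0.113), and Gapdh, at 1601, 850.3 and 918 CPM in the BME plates and 823 and 815 CPM in the Collagen I plates (adjusted p = 0.286), were not called. Slc2a1, the glucose transporter, rose by 0.75 ± 0.19. All 5 were named after their values were seen. Without Collagen I replicates 1 and 3, 10 and 12 of the 17 calls were kept, and 10 were stable, including Vegfa, Egln3, Ddit4, Ndrg1, Bnip3, Car9, Gpi1 and Aldoc.

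Promoters of these genes are printed for the core letters of the hypoxia response element, ACGTG, which reads as CACGT on the opposite strand, to which HIF binds with its partner ARNT. The letters overlap the E-box CACGTG, as in Bnip3. The windows are Ddit4 at chr10:59951923-59951987, minus strand with a match 187 bases before the start, Bnip3 at chr7:138909579-138909644, minus strand, Car9 at chr4:43506978-43507025, plus strand and Egln3 at chr12:54204069-54204124, minus strand, with the matches in capitals.
Ddit4: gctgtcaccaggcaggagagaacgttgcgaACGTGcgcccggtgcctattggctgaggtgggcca
Bnip3: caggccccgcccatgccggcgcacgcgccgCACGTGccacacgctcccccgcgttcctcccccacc
Car9: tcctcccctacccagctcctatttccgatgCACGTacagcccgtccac
Egln3: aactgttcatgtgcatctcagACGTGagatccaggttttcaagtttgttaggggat
The letters occurred in 23 of 32 genes of the list that have a promoter in the table and in 12 of 15 that rose, against 21.8% of all genes of the table. In Car9 the match lies 18 bases before the start. Ndrg1 had none in the bases searched.

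Of 38 extracellular matrix genes 14 rose and 0 fell, with a median of 0.88, and 25 of 38 were higher in both Collagen I plates than in any BME plate. Fn1, fibronectin, was at 231, 128 and 138 CPM in the BME plates and 965 and 872 CPM in the Collagen I plates (2.47 ± 0.22, adjusted p = 7.34e-06). Tnc, the matricellular protein tenascin C, was at 11.4, 14.1 and 12.1 CPM in the BME plates and 139 and 77.4 CPM in the Collagen I plates (3.16 ± 0.29, adjusted p = 9.52e-06), with 27.2% of its Collagen I counts in 1 well. Thbs1, thrombospondin 1, was at 52.5, 45.8 and 47.3 CPM in the BME plates and 178 and 167 CPM in the Collagen I plates (1.83 ± 0.19, adjusted p = 3.05e-05). These genes, with Spp1, Col1a1 and Plod1, were stable. Col1a1, a chain of collagen I itself, was at 7.14, 5.03 and 3.14 CPM in the BME plates and 84.7 and 102 CPM in the Collagen I plates (4.16 ± 0.37), and Serpinh1, its chaperone, named after its values were seen, was at 1.02, 1.44 and 3.56 CPM in the BME plates and 8.20 and 40.7 CPM in the Collagen I plates, mainly in replicate 3. Since fibroblast markers moved with the matrix, the count was run again without the cycling wells that reached 10 per 10000 counts of those markers (an alternative chosen after seeing the data), and 15 of 38 matrix genes rose, with Fn1 at 2.45 and Col1a1 at 3.43. Col1a1 is itself among those markers, so leaving out these wells helps to set its value. Wells with fewer fibroblast transcripts stayed in, so this count cannot show which cells made the matrix transcripts. Dcn, a fibroblast proteoglycan, was at 1.22, 0.96 and 0.42 CPM in the BME plates and 2.73 and 73.3 CPM in the Collagen I plates and so came almost wholly from Collagen I replicate 3, with transcripts in 8 of 88 Collagen I and 10 of 375 BME cycling wells.

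Integrins connect the cell to this matrix. Of 11 integrin genes 4 rose and 0 fell, and 1 of the 4 calls was stable. Itgb3, a subunit of the vitronectin and fibronectin receptor, was at 4.08, 3.59 and 2.51 CPM in the BME plates and 30.1 and 73.3 CPM in the Collagen I plates (3.83 ± 0.49, adjusted p = 1.86e-04), was the stable one and went to 3.12 without Collagen I replicate 3. Itga1, whose product binds collagen with integrin beta 1, was at 2.25, 1.68 and 2.51 CPM in the BME plates and 13.7 and 12.2 CPM in the Collagen I plates, near the detection limit. Itga6 and Itga3, subunits of laminin receptors, were at 95.7, 92.00 and 91.6 CPM in the BME plates and 194 and 167 CPM in the Collagen I plates and 230.2, 141 and 160.3 CPM in the BME plates and 415 and 273 CPM in the Collagen I plates. Of 18 proteases and inhibitors 2 rose and 0 fell (median −0.09), against a background of 4.39% and 2.98%. Mmp14, a membrane collagenase, was among those that rose, at 80.2, 70.4 and 65.5 CPM in the BME plates and 131 and 147 CPM in the Collagen I plates, but its call was not kept without either Collagen I plate.

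Of 37 actomyosin genes 8 rose and 0 fell (median 0.37). Actb, cytoplasmic actin, was at 1769.7, 2224 and 2178 CPM in the BME plates and 3695 and 3532 CPM in the Collagen I plates (0.81 ± 0.17), and Ezr, which ties actin to the membrane, at 349, 294 and 285 CPM in the BME plates and 552 and 636 CPM in the Collagen I plates (0.94 ± 0.16, adjusted p = 0.00227). Anxa2 and Myl12a, a myosin light chain, rose by 0.91 ± 0.17 and 0.62 ± 0.15. Of the 8 calls 2 were kept without Collagen I replicate 1 and 0 without replicate 3. Of 23 genes in the list of YAP and TEAD targets, which also holds Wwtr1, 5 rose and 0 fell. The median of the list was 0.05, close to that of all genes. It went below 0 without a filter on low counts and with a marker cut of 12 (−0.18). The same held without the Krt5 and Krt14 wells (−0.06) and after thinning (−0.15 and −0.23). Cyr61 and Ctgf, secreted CCN proteins and standard readouts of YAP, were at 44.5, 61.8 and 74.3 CPM in the BME plates and 216 and 261 CPM in the Collagen I plates (1.97 ± 0.23, adjusted p = 7.51e-05) and 7.96, 8.15 and 11.9 CPM in the BME plates and 87.5 and 52.96 CPM in the Collagen I plates (2.95 ± 0.35, adjusted p = 9.86e-05). Amotl1, a YAP-binding angiomotin, was at 97.2, 99.2 and 99.8 CPM in the BME plates and 227 and 306 CPM in the Collagen I plates (1.41 ± 0.18). Wwtr1, counted in the list although it encodes the YAP paralog TAZ, rose by 0.88 ± 0.20. F3, tissue factor, named after its values were seen, rose by 1.40 ± 0.36. Cyr61 and Amotl1 were stable.

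**Figure D3:**
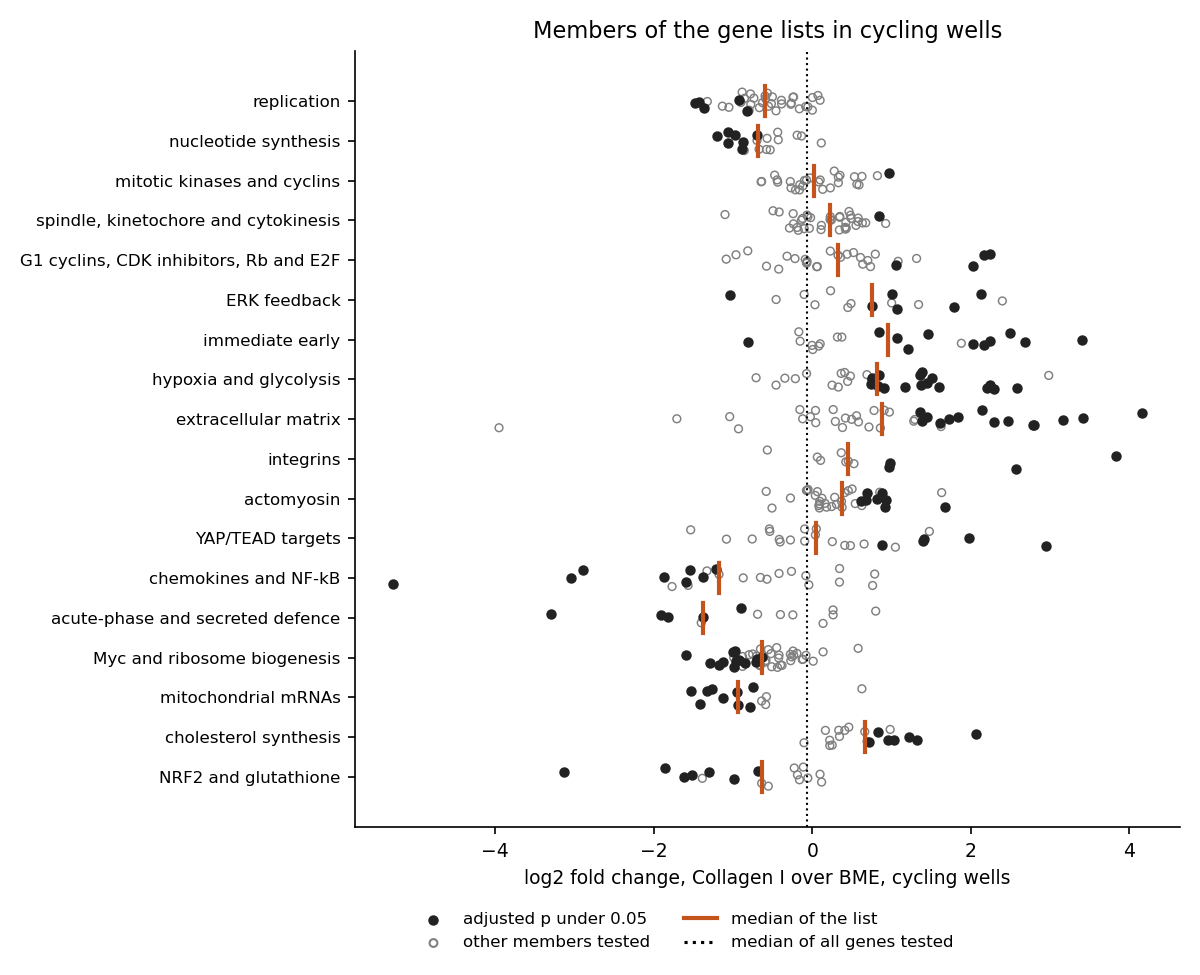
Log2 fold change, Collagen I against BME, of each tested gene in the main gene lists, with filled points for genes that passed the test, a bar at the median of each list and a dotted line at that of all genes, and with genes without counts in both Collagen I plates left out. The medians run from −1.37 for acute-phase genes to 0.95 for immediate early genes.

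In the list of chemokines and targets of NF-kB several genes fell and none was called higher, while Ier3, which rose, was counted with the ERK targets. Of 23 genes 8 fell, with a median of −1.18, and against all BME plates 12 were lower and 4 higher in both Collagen I plates. Cxcl5, a neutrophil chemokine, was at 1363, 1911 and 1104 CPM in the BME plates and 46.5 and 24.4 CPM in the Collagen I plates (-5.29 ± 0.34, adjusted p = 2.62e-07), and was found in 337 of 375 BME and 7 of 88 Collagen I wells. Cxcl1, of the same family, was at 600.3, 665 and 545 CPM in the BME plates and 51.9 and 102 CPM in the Collagen I plates (-3.04 ± 0.25, adjusted p = 3.12e-06). Both were stable. Csf3, the granulocyte growth factor, was at 50.01, 160.3 and 80.5 CPM in the BME plates and 21.9 and 0 CPM in the Collagen I plates. Il1rn, the interleukin 1 receptor antagonist, was at 109, 68.8 and 71.6 CPM in the BME plates and 30.1 and 12.2 CPM in the Collagen I plates, and Sod2, the mitochondrial superoxide dismutase induced by NF-kB, at 502, 449.7 and 445 CPM in the BME plates and 167 and 240.3 CPM in the Collagen I plates (-1.22 ± 0.19). Of the 8 calls 3 were kept without Collagen I replicate 1 and 3 without replicate 3. The Cxcl1 promoter is shown for its match to GGGANNTTC, letters of the NF-kB site, at chr5:90891144-90891214, plus strand, where matches on both strands overlap in the stretch in capitals.
Cxcl1: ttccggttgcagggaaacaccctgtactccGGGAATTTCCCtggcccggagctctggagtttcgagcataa
These letters occurred in 9 of 23 genes of the list that have a promoter in the table, in 2 of 5 that fell, and in 4.47% of all genes.

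Acute-phase and secreted defence genes fell too. Of 17 genes 5 fell and 0 rose, and the median was −1.37. C3, the central complement component, was at 161, 150.5 and 122 CPM in the BME plates and 19.1 and 8.15 CPM in the Collagen I plates (-3.30 ± 0.36, adjusted p = 3.78e-05). Clu, clusterin, was at 475, 399 and 336 CPM in the BME plates and 115 and 97.8 CPM in the Collagen I plates (-1.91 ± 0.22), and Hp, haptoglobin, at 447, 628 and 542 CPM in the BME plates and 131 and 179 CPM in the Collagen I plates (-1.82 ± 0.22). Slpi, the secretory leukocyte protease inhibitor, was at 732, 648 and 576 CPM in the BME plates and 210.4 and 301 CPM in the Collagen I plates and Cd14, the co-receptor for lipopolysaccharide and a luminal marker named after its values were seen, at 1553, 1222 and 1137 CPM in the BME plates and 667 and 729 CPM in the Collagen I plates. C3, Clu and Hp were stable.

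Genes of growth metabolism were split. Of 47 genes of Myc targets and ribosome biogenesis 13 fell and 0 rose, the median was −0.63, and 32 of 47 were lower in both Collagen I plates than in any BME plate (background 26.6%). Odc1, the rate-limiting enzyme of polyamine synthesis, was at 229.6, 207 and 216 CPM in the BME plates and 65.6 and 81.5 CPM in the Collagen I plates (-1.59 ± 0.21, adjusted p = 2.59e-04). Nop56, of the small nucleolar particles that methylate ribosomal RNA, was at 559, 493 and 600.2 CPM in the BME plates and 235 and 212 CPM in the Collagen I plates (-1.29 ± 0.18, adjusted p = 3.58e-04). Both were stable. Srm, spermidine synthase, had a log2 fold change of -1.003 and Hspe1, the mitochondrial co-chaperonin, of -0.96. Of the 13 calls 3 were kept without Collagen I replicate 1 and 2 without replicate 3. Only 2 of 73 ribosomal protein genes, Rpl4 and Rpl12, passed the test, both lower. This share is close to the 2.98% of all genes called lower. Rpl4 was at 4749, 4487 and 4943 CPM in the BME plates and 2446 and 2448 CPM in the Collagen I plates. Reads of such genes can be shared with processed pseudogenes.

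Of 19 genes of cholesterol synthesis 7 rose and 0 fell (median 0.66). Insig1, the SREBP target that holds SREBP back, was at 63.3, 67.8 and 71.1 CPM in the BME plates and 282 and 285 CPM in the Collagen I plates (2.07 ± 0.17, adjusted p = 2.83e-06). Hmgcs1 and Pmvk, enzymes of the mevalonate pathway, rose by 0.96 ± 0.15 and 1.22 ± 0.20. Insig1 was stable, and 3 of the 7 calls were kept without Collagen I replicate 1 and 3 without replicate 3.

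Genes of NRF2 and glutathione fell in 7 of 17 cases and rose in 0 (median −0.64). Gpx2, an epithelial glutathione peroxidase, was at 219, 214 and 195 CPM in the BME plates and 46.5 and 73.3 CPM in the Collagen I plates (-1.86 ± 0.24, adjusted p = 1.76e-04) and was stable. Gclm, the modifier subunit of glutathione synthesis, was at 129, 114 and 122 CPM in the BME plates and 46.5 and 36.7 CPM in the Collagen I plates and Slc7a11, the cystine importer, at 32.9, 31.6 and 22.2 CPM in the BME plates and 5.47 and 0 CPM in the Collagen I plates, with transcripts in 1 of 88 Collagen I wells. Mt2, a metallothionein, was at 169, 169.9 and 149 CPM in the BME plates and 35.5 and 77.4 CPM in the Collagen I plates, where the Collagen I plates were more than 2-fold apart, and it went from −1.61 to −1.08 without Collagen I replicate 1 (adjusted p = 0.111). Of the 7 calls 1 was kept without Collagen I replicate 1 and 2 without replicate 3.

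Messenger RNAs of the mitochondrial genome fell in 9 of 13 cases (median −0.94). The cytochrome b row (mtCytb) was at 16409.6, 10397 and 11374 CPM in the BME plates and 4829 and 4738 CPM in the Collagen I plates (-1.41 ± 0.23, adjusted p = 0.00141) and the mtNd2 row at 18026, 10606 and 13635 CPM in the BME plates and 4559 and 5218 CPM in the Collagen I plates (-1.53 ± 0.24). The mitochondrial ribosomal RNA mt-Rnr1 went the other way, at 6002, 4826 and 7214 CPM in the BME plates and 11304 and 9272 CPM in the Collagen I plates (0.77 ± 0.21). None of the 9 calls was kept without either Collagen I plate. Of 85 nuclear genes of oxidative phosphorylation 2 rose and 7 fell, against a background of 4.39% and 2.98%. Ndufc2 fell, at 564, 483 and 474 CPM in the BME plates and 241 and 269 CPM in the Collagen I plates, and Ndufv3 rose (1.22 ± 0.20 on the log2 scale), both being subunits of complex I. Rn45s, which moved with the matrix in the opposite direction to these messages, and depth were not tested as a part of this result.

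Markers of the epithelial lineages moved in both directions. Of 15 luminal genes 5 rose and 3 fell, and of 11 basal genes 2 rose and 1 fell. Krt18 and Krt8, the keratin pair of luminal cells, were at 197, 215 and 179 CPM in the BME plates and 489 and 554 CPM in the Collagen I plates for Krt18 (1.40 ± 0.16, adjusted p = 6.50e-05) and rose by 1.28 ± 0.16 for Krt8, and both were stable. Cldn3, a tight junction claudin, was at 50.2, 59.4 and 41.4 CPM in the BME plates and 191 and 134 CPM in the Collagen I plates (1.72 ± 0.23), and Krt19, named after its values were seen, rose by 1.67 ± 0.48. Ly6d fell to 49.2 and 20.4 from 210.2, 193 and 131 CPM, and Foxa1, the pioneer factor of luminal cells, named after its values were seen, to 137 and 77.4 from 244, 213 and 177 CPM.

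Among the basal genes Krt14 was at 177, 198 and 259 CPM in the BME plates and 76.5 and 77.4 CPM in the Collagen I plates (-1.46 ± 0.25, adjusted p = 0.00184), whereas Krt5, its partner, named after its values were seen, was at 269, 224 and 235 CPM in the BME plates and 289.7 and 183 CPM in the Collagen I plates and the groups overlapped. The test of Krt5 gave -0.01 ± 0.20 (adjusted p = 0.99). Krt15 rose at low level (5.92, 5.27 and 7.53 CPM in the BME plates and 24.6 and 24.4 CPM in the Collagen I plates). Of 12 EMT factors and cadherins, 8 were tested and 3 rose, namely Fn1, Epcam, an epithelial adhesion molecule (0.75 ± 0.16), and Snai1, a repressor of E-cadherin, at 18.2, 17.7 and 16.5 CPM in the BME plates and 65.6 and 24.4 CPM in the Collagen I plates. Cdh1, E-cadherin, was at 225, 179 and 182 CPM in the BME plates and 120.3 and 151 CPM in the Collagen I plates (adjusted p = 0.127).

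Milk genes moved in both directions. Csn3, kappa casein, was at 17.6, 15.8 and 17.8 CPM in the BME plates and 541 and 1039 CPM in the Collagen I plates (5.51 ± 0.24, adjusted p = 4.36e-09), with transcripts in 55 of 375 BME wells and 64 of 88 Collagen I wells. Mfge8, a milk fat globule protein, was at 367, 295 and 276 CPM in the BME plates and 1364 and 1194 CPM in the Collagen I plates (2.03 ± 0.17, adjusted p = 3.12e-06) and Spp1, osteopontin, at 250.4, 164 and 243 CPM in the BME plates and 779 and 668 CPM in the Collagen I plates (1.73 ± 0.19). All 3 were stable. Csn1s1, an alpha casein, fell (43.3, 52.2 and 62.8 CPM in the BME plates and 16.4 and 24.4 CPM in the Collagen I plates), so that of 11 milk and secretory genes 3 rose and 1 fell.

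Among genes with large rises were several at a low level in BME. Col8a2, a short-chain collagen, was at 0, 0.48 and 0.63 CPM in the BME plates and 43.7 and 61.1 CPM in the Collagen I plates (6.99 ± 0.65, adjusted p = 1.05e-05), in 4 of 375 BME and 19 of 88 Collagen I wells. Dysf, dysferlin, which mends the plasma membrane, was at 1.43, 0.72 and 0 CPM in the BME plates and 57.4 and 61.1 CPM in the Collagen I plates (6.27 ± 0.63, adjusted p = 2.22e-05). Both were stable, and went to 7.59 without BME replicate 3 and 7.28 without BME replicate 1, respectively. Ckb, brain creatine kinase, was at 4.29, 2.88 and 3.14 CPM in the BME plates and 57.4 and 44.8 CPM in the Collagen I plates and Fam101a, an actin regulator, at 5.51, 5.51 and 4.81 CPM in the BME plates and 46.5 and 65.2 CPM in the Collagen I plates, and these were stable as well. Fhl1, a LIM domain protein of muscle, was at 9.59, 9.10 and 2.09 CPM in the BME plates and 62.9 and 89.6 CPM in the Collagen I plates. Capn6, a calpain without protease activity, was at 9.19, 0.24 and 0.42 CPM in the BME plates and 81.99 and 85.5 CPM in the Collagen I plates, 1 BME well gave 85.4% of its BME counts, and its log2 fold change of 4.60 was 7.79 without BME replicate 1, while its call was lost without either Collagen I plate. Nptx1, a secreted pentraxin of neurons, was at 24.5, 3.35 and 1.88 CPM in the BME plates and 224 and 81.5 CPM in the Collagen I plates, and went from 3.98 to 5.98 without BME replicate 1 and to 3.00 without Collagen I replicate 1, where its call was lost (adjusted p = 0.328).

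Igfbp5, a secreted carrier of insulin-like growth factors, rose from 294, 431 and 409 CPM in the BME plates to 1678 and 1377 CPM in the Collagen I plates (2.02 ± 0.19, adjusted p = 9.52e-06) and was stable. Among the largest falls were Aldh3a1, an aldehyde dehydrogenase induced by the aryl hydrocarbon receptor, at 69.4, 69.96 and 65.7 CPM in the BME plates and 5.47 and 0 CPM in the Collagen I plates (-4.37 ± 0.54, adjusted p = 1.24e-04). Cyp1b1, another target of that receptor, was at 188, 115 and 121 CPM in the BME plates and 27.3 and 36.7 CPM in the Collagen I plates. The call of Aldh3a1 was stable but its size was not, at −3.65 without Collagen I replicate 3 and −10.9 without replicate 1, which leaves only a plate with 0 counts. Wif1, a secreted inhibitor of Wnt ligands, was at 61.2, 94.2 and 69.5 CPM in the BME plates and 13.7 and 8.15 CPM in the Collagen I plates. Id3, a dominant-negative partner of bHLH factors, was at 121, 88.2 and 93.7 CPM in the BME plates and 13.7 and 36.7 CPM in the Collagen I plates. Slc39a4, a zinc importer, was at 187, 107 and 122 CPM in the BME plates and 27.3 and 28.5 CPM in the Collagen I plates. The rows of the predicted genes Gm8580 and Gm12191 fell as well, with log2 fold changes of -5.60 ± 0.76 and -4.75 ± 1.26 (± SE), and are uncertain because their reads can come from near-identical copies.

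**Figure D4:**
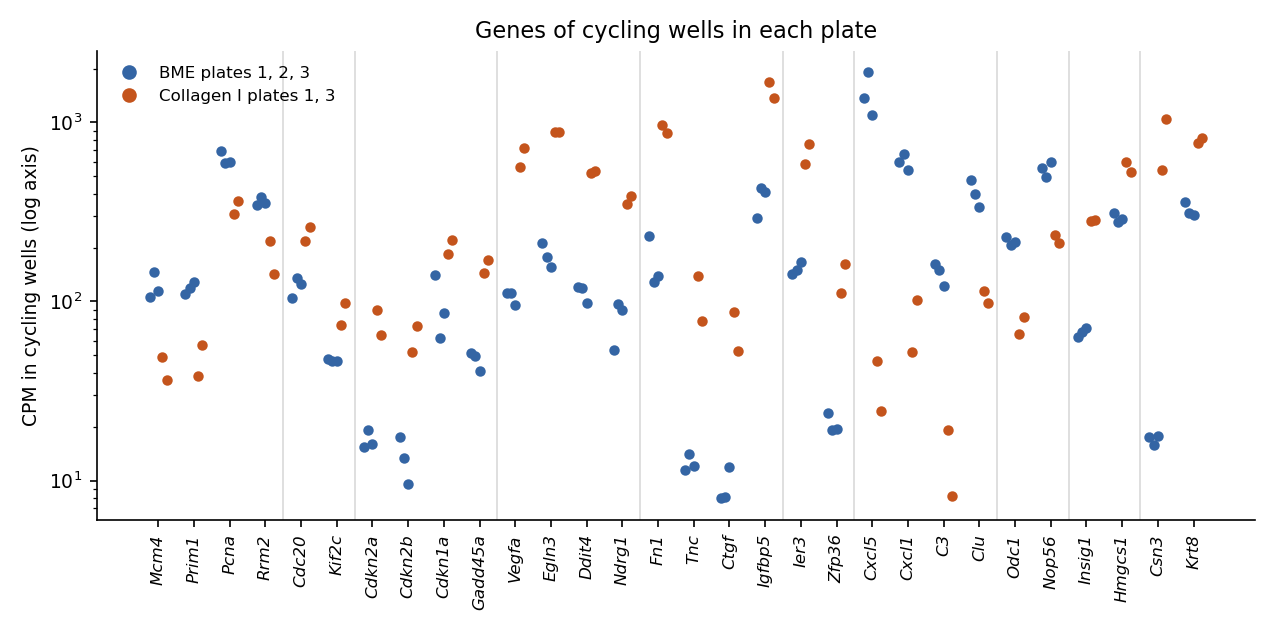
Levels of genes named in the text in the cycling wells of each plate, in CPM (logarithmic axis), each point being 1 plate. Csn3, Vegfa and Igfbp5 stand higher and Cxcl5, Cxcl1 and C3 lower in both Collagen I plates than in any BME plate.

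Whether the effect of Collagen I was particular to cycling cells was tested against the 792 other kept wells of the same plates, with the plate as a block. Of 11493 genes, the Collagen I effect was higher in the cycling wells than in the others for 25 (0.218%) and lower for 56 (0.487%). Leaving out Collagen I replicate 1 or replicate 3 left 1 call in each case. Since cycling and other wells come from the same plates, values are given side by side. The list medians in cycling and in other wells were 0.81 and 1.36 for hypoxia and glycolysis, 0.88 and 1.30 for extracellular matrix, −0.59 and −1.18 for replication, −0.63 and −0.83 for Myc and ribosome biogenesis, −1.18 and −0.87 for chemokines and NF-kB and 0.66 and 0.91 for cholesterol synthesis. They were 0.05 and 0.44 for the YAP and TEAD list and 0.37 and 0.86 for actomyosin. The other kept wells of Collagen I replicates 1 and 3 included 3 and 16 wells at the fibroblast-marker cut, against 1 and 4 cycling wells. These wells stayed in this comparison. Their part in the medians and in the differences between cycling and other wells was not tested.

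Igfbp5 rose mainly in the cycling wells. In cycling wells it was at 296, 435 and 412 CPM in BME and 1658 and 1356 CPM in Collagen I, and in the other wells at 1474, 1504 and 1044 and 2068 and 1541 CPM. The cycling wells of BME thus stood below all other groups of wells, and the difference of the effects was 1.55 ± 0.17 (adjusted p = 7.20e-05), with an adjusted p of 0.131 and 0.135 without Collagen I replicates 1 and 3. After thinning it was 1.43 and was still called. Ctgf differed in the same direction, by 1.94 ± 0.41 (adjusted p = 0.0255), at 8.03, 8.23 and 12.03 against 86.4 and 52.1 CPM in cycling wells and 19.1, 64.1 and 54.4 against 85.2 and 91.8 CPM in the others. Thbs1 differed by 1.31 ± 0.20 (adjusted p = 0.00129), and Hp, which fell in both, fell less in cycling wells (1.48 ± 0.22). Gstt3, a glutathione transferase, and Bid, a pro-apoptotic BCL2 protein, also stood on this side.

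In the opposite direction, Hbegf, a membrane-bound ligand of the EGF receptor, was at 15.4, 18.9 and 20.05 CPM in BME and 29.7 and 16.04 CPM in Collagen I cycling wells and at 12.3, 11.6 and 17.7 and 85.2 and 127 CPM in the other wells. The difference was -2.46 ± 0.39 (adjusted p = 0.00237), and only the other wells of Collagen I stood apart. Ier3 rose in both kinds of wells but less in cycling ones (144, 151 and 167 against 578 and 742 CPM, and 116, 114 and 168 against 1097 and 1433 CPM, with a difference of -1.16 ± 0.13, adjusted p = 7.20e-05). Krt8 and Cdkn1a behaved likewise, with differences of -0.68 ± 0.12 and -0.68 ± 0.16.

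Of 33 hypoxia and glycolysis genes 7 had a smaller effect in cycling wells and 0 a larger one. Gapdh was at 1614, 859 and 926 CPM in BME and 813 and 802 CPM in Collagen I cycling wells and at 1669, 867 and 905 and 1439 and 1304 CPM in the other wells, a difference of -0.76 ± 0.11 (adjusted p = 8.49e-04). Pfkp, phosphofructokinase, Pkm, pyruvate kinase, Pgk1 and Slc2a1 differed by -0.93, -0.44, -0.52 and -0.81 (named after their values were seen). Of 38 actomyosin genes 4 were lower in this sense, Anxa2 among them at -0.73 ± 0.12. Mitotic genes are tied to the rule and are only described. Ccnb1, a marker of the rule, differed by 1.83, a value that the choice of wells helps to set.

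**Figure D5:**
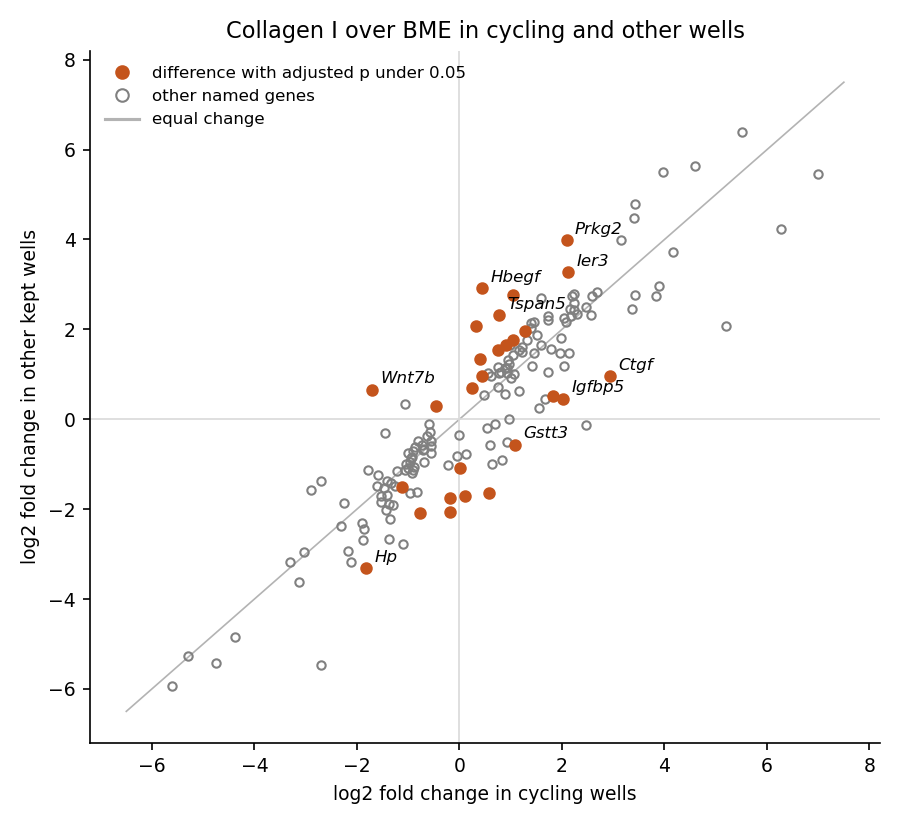
Log2 fold change, Collagen I against BME, in cycling wells against that in the other kept wells of the same plates, for the named genes, with genes that differ between the kinds of wells marked and genes without counts in both Collagen I plates left out. Igfbp5 and Ctgf lie on the side of the cycling wells and Hbegf, Tspan5 and Ier3 on the side of the others.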

How the data were processed

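Single cells of MMTV-PyMT organoids, 5 days in BME (3 plates) or Collagen I (2 plates), were sorted into 384-well plates and sequenced by SORT-seq. The authors deposited expected counts per gene and well, meaning distinct UMIs corrected for UMI saturation and not normalized, and the submitters' processing notes name BWA and mm10 (the aligner's version is not given in the sources used here). Within 0.02, 99.6% to 99.9% of values are what a pool of 4096 UMIs (6 bases) gives back, while the labels state 4 bases. The counting is not stated to use strand.

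Spike-in rows were dropped and wells with over 2000 counts and under 8000 genes were kept. Counts of the cycling wells were summed per plate, rounded, filtered with filterByExpr and tested between matrices by the quasi-likelihood method of edgeR 4.0.16 after TMM scaling, with Benjamini-Hochberg adjustment over all genes tested and calls at an adjusted p under 0.05 (R 4.3.3, limma 3.58.1). A standard error is the absolute log2 fold change over the root of its F statistic. The sums held 4166767 to 5019068 counts per BME plate and 242264 and 358069 per Collagen I plate. The difference from the other kept wells was tested as an interaction on 2 sums per plate, with the plate as a block. The scripts were tested on simulated data. Intervals cover counting error only. Motif letters were searched on both strands of RefSeq promoters (GRCm38.p6, 250 bases before to 50 after the start, chromosome 18 left out), which hold 120 of the 172 named genes, and stretches are printed from before the start only.

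The members, the 34 gene lists and the tests were chosen with earlier results of these data known. Named are the 6 markers, the 12 genes with the largest change in each direction (adjusted p under 0.05, plates apart, at least 50 CPM in 1 group, and no ribosomal RNA or mitochondrial rows), the 6 with the largest interaction in each direction, and up to 4 genes per list with the smallest p, of which not all are described. Genes said to be named after their values were seen were added.

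The alternatives were DESeq2 1.42.0, RLE size factors, library size only, no filter, a replicate block, wells thinned to 2000 counts before or after the choice, over 5000 counts per well, cuts of 3 and 12, at least 3 of the markers, the saturation correction undone, dominant transcripts left out, mitochondrial counts under 10%, the top 5% of wells left out (no doublet caller was run), keratin-positive wells left out, fibroblast-marker wells left out (chosen after seeing the data) and each plate left out. Python used numpy 2.4.6, pandas 2.3.3, scipy 1.17.1 and matplotlib 3.10.9.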

Additional observations from a re-analysis of the deposited data

Results flagged for a closer look

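Genes were looked at again where the effect of Collagen I differed between cycling wells and the other kept wells by a test of the difference itself (edgeR, adjusted p under 0.05, with the plate as a block). Values are log2 differences, cycling minus other wells, for the 6 largest in each direction among genes of at least 50 CPM. Of these 12, the call of Igfbp5 alone was kept after thinning, and none was kept without either Collagen I plate.

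Higher in cycling wells were Arhgap11a, a RhoA regulator that peaks in mitosis, at 2.21, Ctgf at 1.94, Bid at 1.91, Ccnb1 at 1.83, Gstt3 at 1.66 and Igfbp5 at 1.55. Arhgap11a and Ccnb1 belong to the program by which the wells were chosen, and their values are a description. Arhgap11a stood at 64.8, 59.03 and 55.5 CPM in BME and 83.7 and 92.3 CPM in Collagen I cycling wells, and at 10.2, 10.1 and 10.3 and 3.31 and 2.96 CPM in the other wells.

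A lower Collagen I effect in cycling wells, again not a lower level, was found for the following genes. They were Hbegf at -2.46, Wnt7b, a Wnt ligand, at -2.36 and Prkg2, a cyclic GMP kinase, at -1.92. Kctd11 was at -1.74, Trib3, a pseudokinase of the stress response, at -1.74 and Tspan5, a tetraspanin, at -1.52. Wnt7b was at 38.7, 35.1 and 38.8 CPM in BME and 10.8 and 12.03 CPM in Collagen I cycling wells, against 28.02, 41.2 and 39.9 and 51.3 and 63.6 CPM in the other wells. Trib3 was at 21.6, 25.9 and 23.4 and 29.7 and 28.1 CPM in cycling wells and at 8.31, 13.3 and 15.6 and 41.4 and 66.6 CPM in the others.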

How the results depend on the processing

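Collagen I against BME in cycling wells called 805 genes, 480 higher and 325 lower. The count was 364 (226 higher, 138 lower) after thinning the same wells to 2000 counts, 293 (190 and 103) with the rule applied after thinning and 525 (317 and 208) for wells over 5000 counts, with fewer genes tested. It was 795 with DESeq2, 791 with RLE factors, 758 with library size, 630 with a cut of 12, 1157 (668 higher, 489 lower) with a cut of 3 and 1161 (581 and 580) without the filter, where the median of all genes fell from −0.07 to −0.32 on the log2 scale. Leaving out 1 plate gave 152 to 1388 calls (127 to 775 higher, 25 to 613 lower), the lowest without Collagen I replicate 1 and the highest without BME replicate 1.

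Calls for difference of the Collagen I effect between cycling and other wells numbered 81. The count was 185 (76 higher, 109 lower) without the filter, 10 (6 and 4) after thinning and 1 to 148 when 1 plate was left out (0 to 52 higher, 1 to 96 lower).

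The share of wells that are cycling was on average 46.2% in BME and 19.8% in Collagen I. It was 41.2% and 16.9% after thinning, 61.1% and 30.01% with a cut of 3, 31.0% and 13.3% with a cut of 12, and 26.2% in Collagen I over 5000 counts. Among Collagen I cycling wells Krt5 and Krt14 wells were 14.9% after thinning.

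Spry2, called higher, turned to −0.0739 on the log2 scale after thinning the same wells. Signs also turned for genes not called in cycling wells, among them Cdk1, Ccnb1, Mki67, Top2a, Cd3d and Pecam1, whose levels are given without a test. Of the others, Bid was at 0.0743 and Trib3 at −0.190 over 5000 counts. Without 1 plate Bid ranged from −1.66 to 0.341, Hbegf from −0.146 to 0.729 and Krt5 from −0.412 to 0.241. Krt5 was at 0.00302 with DESeq2, 0.00770 with RLE factors, 0.0433 with library size, 0.145 and 0.126 after thinning, 0.0954 with at least 3 markers, 0.00621 with the saturation correction undone, 0.0788 with mitochondrial counts under 10%, 0.129 without the top 5% of wells and 0.0182 without fibroblast-marker wells. The cause was not tested.

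With replicate numbers as a block, Collagen I against BME in cycling wells called 862 genes. Same-numbered plates correlated at −0.00 and 0.02. Each BME plate had correlations of the same size and opposite sign with the Collagen I plates, which are too few to vary independently around their mean. These values therefore cannot decide whether the numbers pair the plates.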
